A study of Homo sapiens with 6 samples.

Results

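The genes of cytokines, chemokines, TNF family proteins and their receptors were compared between T47D-TR and T47D cells. They were chosen by symbol: interleukins and their receptors, CC and CXC chemokines and theirs, TNF and the TNFSF and TNFRSF families, colony-stimulating factors, LIF and oncostatin M with their receptors, without antisense genes. The rule found 86 of the 20503 genes in the deposited table, of which 32 encode ligands, 50 receptors, 1 a secreted antagonist (IL18BP) and 3 something else. T47D-TR is a tamoxifen-resistant subline of the human breast cancer line T47D, grown with 1 µM 4-hydroxytamoxifen, the active metabolite of tamoxifen; T47D is the parental line, grown without it. Both are labelled with a T47D background, and the parental medium was DMEM with serum. Subline and drug differ together between the groups, so their effects cannot be told apart. Each group had 3 poly(A) RNA libraries, and the labels do not say that these came from separate cultures, so a p-value here reflects the spread among libraries alone, which may be technical. In bulk RNA a lower level can mean fewer cells of a kind or less RNA in each, and these cannot be told apart.

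Cytokines are small secreted proteins by which cells signal to neighbours and to the immune system. The IL-1 and TNF families act largely through the transcription factor NF-kB. The IL-6 family shares the receptor chain gp130, encoded by IL6ST, and signals through JAK kinases and STAT factors. Chemokines act on G protein-coupled receptors and guide migrating cells, and the CXC chemokines of the CXCL1 to CXCL3 and CXCL8 group attract neutrophils. Epithelial and carcinoma cells make several of these ligands and carry many of the receptors.

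The libraries held 17199315 to 19867230 counts in T47D-TR and 18315735 to 19305594 in T47D, at which 3 counts in a library correspond to 0.153 to 0.178 CPM (counts scaled to a common library size, after TMM). Libraries of a group correlated at r = 0.990 to 0.994 across genes, T47D-TR replicate 3 lying farthest from its group (0.990 and 0.991), and libraries of different groups at 0.942 to 0.947. The luminal label was checked against its markers: ESR1, the oestrogen receptor alpha gene, had 2, 4 and 3 counts in T47D-TR and 3, 0 and 2 in T47D, against the labelled ER-positive type, and GATA3 stood at 0.625 CPM in T47D-TR and 1.23 CPM in T47D, while KRT8 and KRT18, simple epithelial keratin genes, had 1580 and 928 CPM in T47D-TR and 1338 and 683 CPM in T47D. FOXA1, CDH1 and KRT19 had 10.7, 5.50 and 112 CPM in T47D-TR and 5.64, 2.12 and 27.8 CPM in T47D. The identity of the line was not tested. Of 13 immune and endothelial markers 7 were measured, with a summed level of 80.9 to 103 CPM in T47D-TR and 24.8 to 28.5 CPM in T47D. Most of it came from the macrophage and lysosome marker CD68 (64.6 CPM in T47D-TR, 23.7 CPM in T47D) and the endothelial gene PECAM1 (27.3 CPM in T47D-TR, 0.669 CPM in T47D), whereas PTPRC, which marks all leukocytes, had at most 1 count in a T47D-TR library and 2 in each T47D library. The levels of CD68 and PECAM1 moved with the ligand changes below, and their part in them was not tested.

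Most measured cytokine and receptor genes differed between the cultures, more often upwards. The edgeR quasi-likelihood test (2-sided) was run on the 15961 genes that passed a filter on low counts, and those with an adjusted p (Benjamini-Hochberg over all of them) under 0.05 are called. Of the 86 members 60 passed the filter, and 34 of these were higher and 16 lower in T47D-TR, where 63% of all tested genes were called, 32.5% higher and 30.5% lower. At least 2-fold, 19 members were higher and 7 lower, against 10.1% and 3.87% of all tested genes. Of the 60, 6 passed the filter through their counts in 1 group alone (IL1A, IL1B, TNFSF14, TNFSF15, CCR1 and CCL2) and so had to differ. In these no library of the other group reached the filter's cutoff. CXCL8, CXCL3 and TNFRSF18 also passed only with their T47D-TR counts, since not all of their T47D libraries reached it. The groups of 3 libraries did not overlap for 52 of the 60, against 68.3% of all tested genes.

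The tested ligands spanned a wider range of change than the tested receptors, though 5 of the 21 had to differ to pass the filter. The ligands CXCL8 and CXCL3 also passed only with their T47D-TR counts. Of 21 tested ligands 12 were higher and 7 lower, with a median log2 fold change of 0.88, a median size of 1.82 and a range of -4.81 to 6.04. Of 37 tested receptors 21 were higher and 8 lower, with a median of 0.44, a median size of 0.67 and a range of -1.31 to 3.21. Over all tested genes the median was 0.00 and the median size 0.36. Per kilobase of exon (GENCODE v29 lengths), the tested ligands had a median level of 1.53 CPM per kb in T47D-TR and 1.26 in T47D, the tested receptors 3.71 and 3.55, and all tested genes 7.20 and 6.71. Summed over all members, ligands made up 207 to 239 CPM in T47D-TR and 220 to 225 CPM in T47D, which overlap, while receptors made up 1633 to 1723 CPM in T47D-TR and 1109 to 1144 CPM in T47D, which do not.

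**Figure D1:**
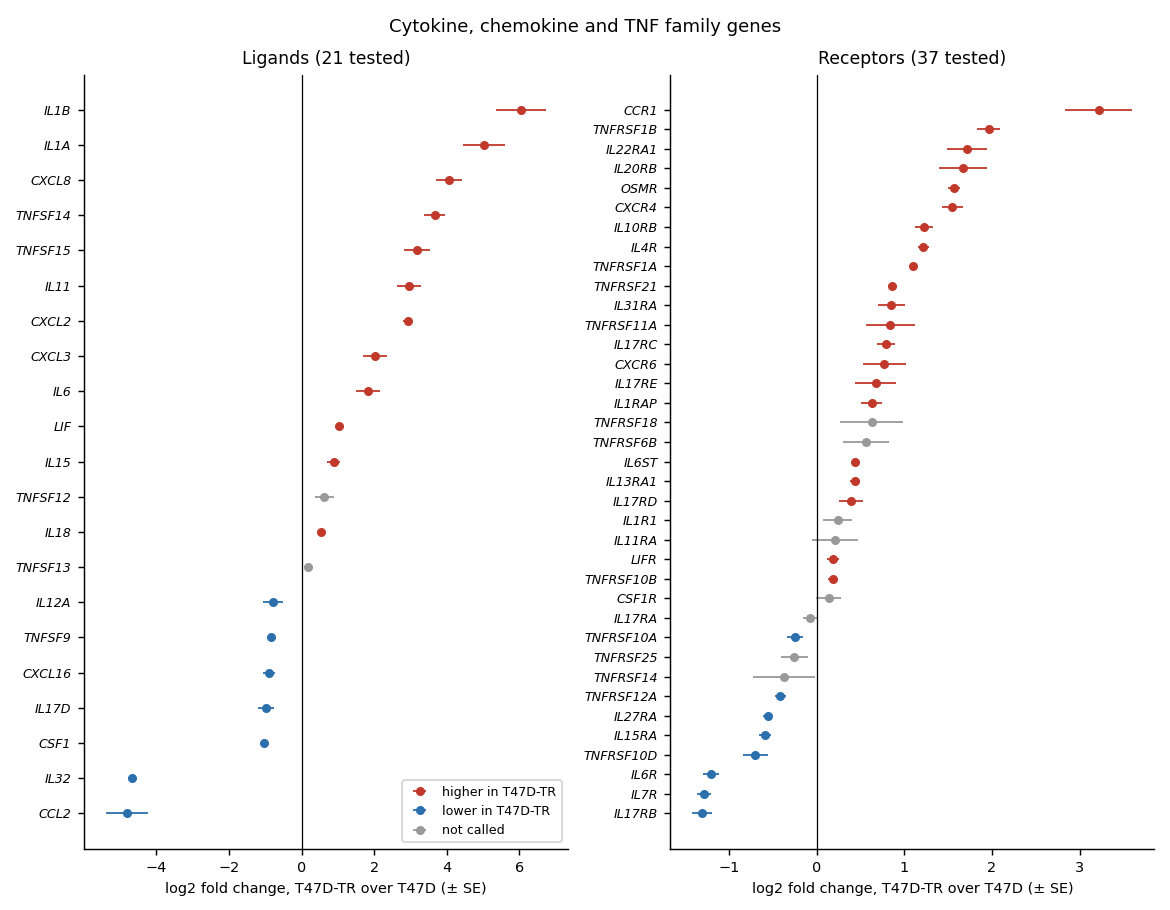
Log2 fold change (T47D-TR over T47D, x axis, ± SE from edgeR) of the 21 tested ligands (left) and 37 tested receptors (right), 1 gene per row, coloured by call. Ligands run from -4.81 to 6.04 and receptors from -1.31 to 3.21; the fitted values of IL1A, IL1B and CCL2 rest on 1 to 3 counts in 1 group.

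The promoters shown are those of ligand genes chosen because they hold 1 or both of a pair of short motifs, so that all of them do is no finding. The promoters of IL1B and TNFSF14, which also rose by far, hold neither. Each line gives the 150 bases before the first listed RefSeq start (GRCh38.p14), 5′ to 3′ on the gene's strand. Capitals mark GGNNTTTCC, a form of the NF-kB site, and TGANTCA, a form of the AP-1 site, where N is any base. The CXCL1 window is chr4:73869243-73869392, plus strand. The CXCL2 window is chr4:74099196-74099345, minus strand. The CXCL3 window is chr4:74038690-74038839, minus strand. The CXCL8 window is chr4:73740419-73740568, plus strand. The IL6 window is chr7:22727050-22727199, plus strand. The IL11 window is chr19:55370464-55370613, minus strand. The TNFSF15 window is chr9:114792531-114792680, minus strand. It lies inside the GENCODE span of the gene, whose 5′ end is at 114806126, and so does not precede that end. The IL6 window also lies inside its GENCODE span, which starts at 22725884. The windows of CXCL2, CXCL3, CXCL8, IL1A and IL32 lie partly inside their GENCODE spans. Their 5′ ends are at 74099293, 74038807, 73740506, 112784590 and 3065297. The IL1A window is chr2:112784494-112784643, minus strand. The IL32 window is chr16:3065253-3065402, plus strand. The first 8 genes belong to ligands that were higher in T47D-TR, CXCL1 only by its few counts, and IL32 was lower.
CXCL1: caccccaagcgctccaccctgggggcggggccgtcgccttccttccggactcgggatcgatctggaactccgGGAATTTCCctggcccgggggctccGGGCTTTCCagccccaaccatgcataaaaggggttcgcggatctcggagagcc
CXCL2: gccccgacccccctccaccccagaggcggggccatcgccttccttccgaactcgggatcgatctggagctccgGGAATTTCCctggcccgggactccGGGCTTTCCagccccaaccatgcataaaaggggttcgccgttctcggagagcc
CXCL3: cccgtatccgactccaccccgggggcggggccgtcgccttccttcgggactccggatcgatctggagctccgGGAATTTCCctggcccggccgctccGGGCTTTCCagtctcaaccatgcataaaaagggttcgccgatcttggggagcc
CXCL8: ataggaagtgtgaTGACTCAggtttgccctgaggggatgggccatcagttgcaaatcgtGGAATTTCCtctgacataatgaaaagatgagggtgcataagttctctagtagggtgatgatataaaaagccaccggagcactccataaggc
IL6: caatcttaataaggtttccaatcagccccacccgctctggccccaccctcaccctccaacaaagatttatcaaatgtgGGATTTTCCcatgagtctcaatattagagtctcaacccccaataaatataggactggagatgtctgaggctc
IL11: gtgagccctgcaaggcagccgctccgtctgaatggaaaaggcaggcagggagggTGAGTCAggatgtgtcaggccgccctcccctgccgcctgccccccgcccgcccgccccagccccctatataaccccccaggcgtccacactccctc
TNFSF15: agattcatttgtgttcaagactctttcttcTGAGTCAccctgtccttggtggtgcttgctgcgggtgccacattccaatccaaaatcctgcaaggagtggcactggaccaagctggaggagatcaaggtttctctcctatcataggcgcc
IL1A: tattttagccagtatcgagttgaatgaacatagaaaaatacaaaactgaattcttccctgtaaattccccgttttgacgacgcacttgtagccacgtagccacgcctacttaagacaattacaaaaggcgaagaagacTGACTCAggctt
IL32: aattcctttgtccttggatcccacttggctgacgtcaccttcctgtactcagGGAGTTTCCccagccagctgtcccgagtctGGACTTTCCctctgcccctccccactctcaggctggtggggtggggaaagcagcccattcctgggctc

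CXCL1, CXCL2 and CXCL3 each held GGNNTTTCC in 2 places, 77 or 78 and 53 bases before the start, and their windows were 86.3% to 88.8% identical in pairwise alignment. CXCL8 held it 91 and IL6 72 bases before the start. TGANTCA stood 137 bases before the start in CXCL8, 96 in IL11, 120 in TNFSF15 and 12 in IL1A. IL32, which fell, held GGNNTTTCC 98 and 68 bases before its start. The first motif was searched on both strands, the other reads the same on both, and they do not overlap in these windows. Among 27305 promoters of RefSeq genes, 3.45% held the first motif and 4.14% the other in this window. A promoter was found for 66 of the 86 members, of which 9 held the first motif and 8 the other. Among the 9 ligands called at least 2-fold higher that have a promoter there, 4 held each (CXCL2, CXCL3, CXCL8 and IL6 the first; CXCL8, IL1A, IL11 and TNFSF15 the other). The matches of CXCL2, CXCL3, IL6, TNFSF15, IL1A and IL32 lie inside the GENCODE spans of these genes and not before their 5′ ends. Those of CXCL1, CXCL8 and IL11 lie before the GENCODE 5′ ends. A match of letters is a description and shows no binding.

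The genes of the inflammatory IL-1 ligands had 0 to 2 counts in each T47D library and were detected in every T47D-TR library. IL1B (chromosome 2, 112829751 to 112836903, GRCh38), which encodes the secreted cytokine IL-1 beta, had 21, 29 and 38 counts in T47D-TR and 1, 0 and 0 in T47D. IL1A (chromosome 2, 112773915 to 112784590), whose product IL-1 alpha also acts from within the cell, had 24, 38 and 45 counts in T47D-TR and 0, 2 and 1 in T47D. In both genes all T47D-TR libraries lay above all T47D libraries, with replicate 3 highest and replicate 1 lowest. The summed counts gave a ratio of 89.6 (95% interval 15.7 to 3578, exact binomial) for IL1B and 36.3 (12.1 to 179) for IL1A, intervals that cover counting error only (edgeR adjusted p = 8.17e-06 and 8.54e-06). The genes are neighbours, 45.2 kb apart.

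IL18, another IL-1 family ligand and the deepest counted ligand gene, was higher by a smaller step, at 58.2 ± 5.31 CPM in T47D-TR and 40.3 ± 2.41 CPM in T47D (SD, n = 3 each; log2 fold change 0.53 ± 0.07 SE, edgeR adjusted p = 4.42e-05). IL18BP, which encodes the soluble protein that binds and blocks IL-18, stood at 11.9 ± 1.3 CPM in T47D-TR and 9.71 ± 0.461 CPM in T47D (log2 fold change 0.28 ± 0.11, edgeR adjusted p = 0.035). That call ended under 8 of 13 alternatives (adjusted p = 0.0583 to 0.468), among them the removal of T47D-TR replicate 1 or 3 or of any 1 T47D library, and 16.3% of the gene's exon bases overlap NUMA1 on the other strand. The receptor side moved little. IL1R1, the signalling receptor of both IL-1 proteins, had 81, 93 and 78 counts in T47D-TR and 58, 74 and 85 in T47D, groups that overlap (log2 fold change 0.24 ± 0.16, edgeR adjusted p = 0.219). IL1RAP, its accessory chain, was higher, with 24.6 ± 4.58 CPM in T47D-TR and 16.0 ± 0.815 CPM in T47D (log2 fold change 0.63 ± 0.12, edgeR adjusted p = 0.000533).

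The neutrophil-attracting CXC chemokine genes of chromosome 4 were higher in T47D-TR. CXCL2 (74097035 to 74099293) had 304, 328 and 281 counts in T47D-TR and 34, 45 and 43 in T47D. CXCL8 (73740506 to 73743716), the gene of interleukin-8, had 104, 147 and 70 counts in T47D-TR and 5, 11 and 3 in T47D. CXCL3 (74036589 to 74038807) had 59, 64 and 80 counts in T47D-TR and 25, 20 and 6 in T47D. No library of 1 group reached into the other for any of the 3 genes, and CXCL2 was the tightest of them in T47D-TR, at 16.4 ± 0.534 CPM. The log2 fold changes were 2.93 ± 0.12 for CXCL2, 4.07 ± 0.35 for CXCL8 and 2.02 ± 0.34 for CXCL3 (edgeR adjusted p = 1.24e-09, 7.47e-07 and 0.000215). Without T47D replicate 2 the value of CXCL8 was 4.68. Both CXCL8 and CXCL3 passed the filter only with their T47D-TR counts, where they are high.

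CXCL1, the closest relative of CXCL2, had 9, 11 and 6 counts in T47D-TR and 0, 1 and 3 in T47D and did not pass the filter. Its groups did not overlap. The longest coding transcripts of CXCL1, CXCL2 and CXCL3 in GENCODE v29 are 67.5% to 80.4% identical, so reads may have been shared between them, and the sources used here do not give how such reads were counted. CXCR2 and CXCR1, the receptors of these chemokines, were not among the 86 genes that the rule found in the deposited table.

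Other tested genes of the same stretch were higher as well. From CXCL8 to AREG, 7 genes were tested, and all 7 had a positive log2 fold change with an adjusted p under 0.05. Of all tested genes 32.5% were called higher. CXCL8 and CXCL3 among the 7 passed the filter only with their T47D-TR counts. The EGF-family ligand genes EREG (5.68), AREG (5.42) and EPGN (2.57) lie beyond CXCL2, and the folate enzyme gene MTHFD2L (0.71) next to CXCL2 had the smallest change of the 7 on the log2 scale.

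**Figure D2:**
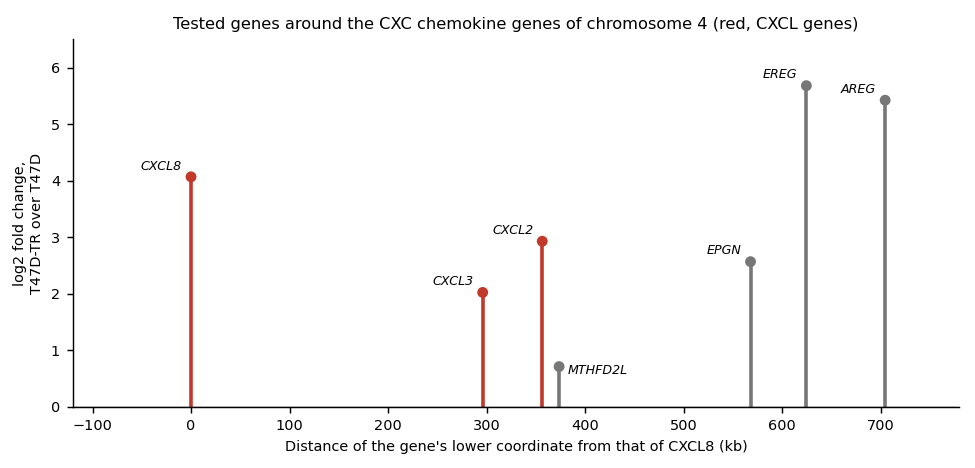
Log2 fold change (T47D-TR over T47D, y axis) of the 7 tested genes around the CXC chemokine genes of chromosome 4, against the distance of their lower coordinate from that of CXCL8 in kb (x axis). All 7 lie above 0, from 0.71 for MTHFD2L to 5.68 for EREG; CXCL1 was not tested and is not drawn.

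The remaining chemokine ligands that could be tested were lower. CCL2 (chromosome 17, 34255218 to 34257203), the gene of a chemokine that attracts monocytes, had 0, 0 and 3 counts in T47D-TR and 30, 35 and 31 in T47D. The 3 counts are all in T47D-TR replicate 3. The ratio of the summed counts was 31.4 in favour of T47D (95% interval 10.4 to 155, exact binomial, counting error only), and the gene was called lower in T47D-TR (edgeR adjusted p = 1.22e-05). CXCL16, which encodes a membrane-bound chemokine, had 87, 69 and 53 counts in T47D-TR and 111, 154 and 130 in T47D (log2 fold change -0.89 ± 0.17, edgeR adjusted p = 0.000451). Its receptor gene CXCR6 moved the other way, with 33, 50 and 43 counts in T47D-TR and 26, 21 and 28 in T47D (log2 fold change 0.77 ± 0.24, edgeR adjusted p = 0.0147). The CXCR6 call ended without T47D-TR replicate 2 (edgeR adjusted p = 0.0583), without T47D replicate 2 (0.068) and with voom (0.0593).

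**Figure D3:**
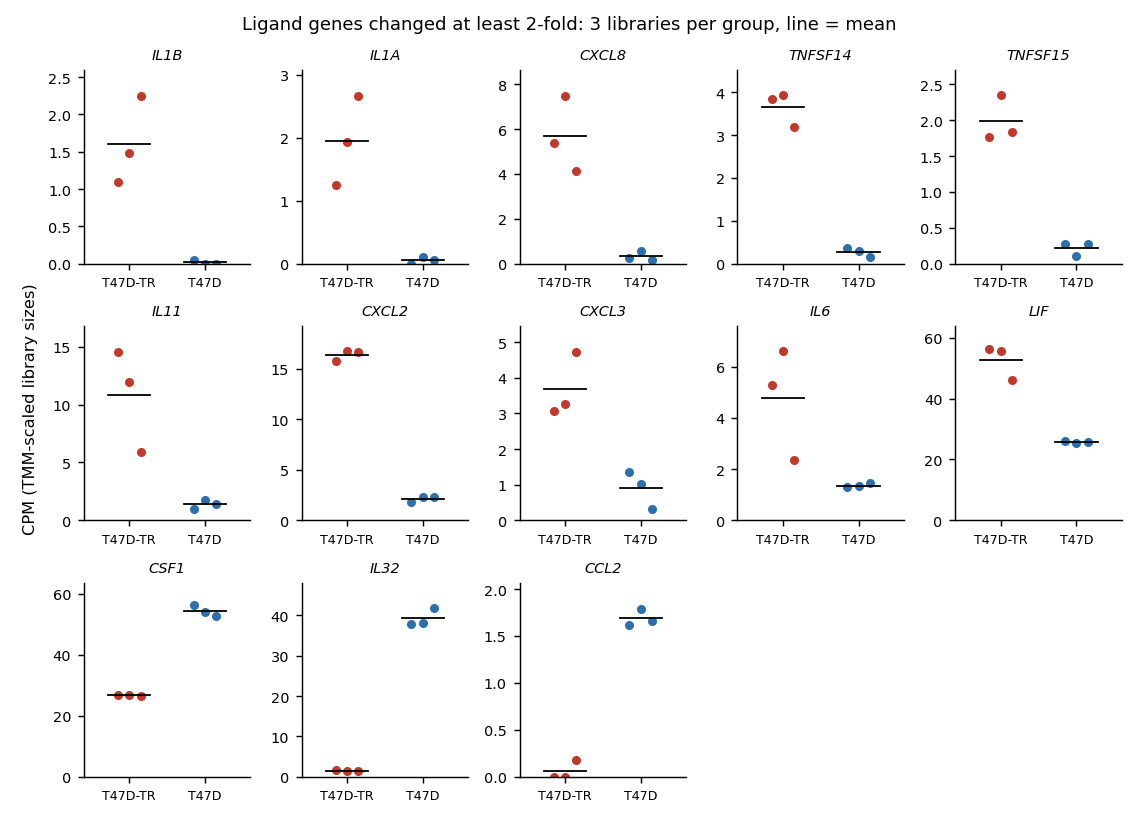
CPM (y axis, linear from 0) of the 13 ligand genes called and changed at least 2-fold, in each of the 3 T47D-TR libraries (red, left) and the 3 T47D libraries (blue, right); lines are means. The 10 genes of the first 2 rows are higher in every T47D-TR library than in any T47D library, and CSF1, IL32 and CCL2 are lower in every one.

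The IL-6 family ligands among the members, IL11, IL6 and LIF, were higher in T47D-TR. IL11 (chromosome 19, 55364389 to 55370463), the gene of interleukin-11, had 281, 235 and 99 counts in T47D-TR and 18, 35 and 26 in T47D. IL6 (chromosome 7, 22725884 to 22732002) had 102, 130 and 40 counts in T47D-TR and 24, 26 and 27 in T47D. LIF (chromosome 22, 30240447 to 30246851), the leukaemia inhibitory factor gene, had 1089, 1092 and 778 counts in T47D-TR and 483, 498 and 477 in T47D. T47D-TR replicate 3 was the lowest T47D-TR library for each, yet above every T47D library. Its CPM was 0.398 times the mean of the other T47D-TR libraries for IL6, 0.442 times for IL11 and 0.822 times for LIF. The log2 fold changes were 2.96 ± 0.33 for IL11, 1.82 ± 0.32 for IL6 and 1.04 ± 0.08 for LIF (edgeR adjusted p = 6.15e-06, 0.000338 and 2.36e-07). Without T47D-TR replicate 3 they were 3.25 for IL11 and 2.13 for IL6. An antisense gene covers 428 of the 1714 exon bases of IL6, and without the strand setting of the counting, which the sources used here do not give, reads of IL6 and that gene cannot be separated.

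Their receptor subunits went different ways. IL6R (chromosome 1, 154405193 to 154469450), which binds IL-6, was lower, with 187, 204 and 165 counts in T47D-TR and 466, 420 and 413 in T47D (log2 fold change -1.20 ± 0.09, edgeR adjusted p = 2.08e-07). The shared chain gene IL6ST (chromosome 5, 55935095 to 55994993) was higher, at 200.5 ± 4.89 CPM in T47D-TR and 148 ± 2.25 CPM in T47D (log2 fold change 0.44 ± 0.04, edgeR adjusted p = 1.76e-06). OSMR (chromosome 5, 38845858 to 38945596), the oncostatin M receptor chain, had 4663, 5349 and 3881 counts in T47D-TR and 1639, 1541 and 1580 in T47D, and all 3 T47D-TR libraries were far above the T47D ones. Its rise was nearly 3-fold (2.96-fold, log2 fold change 1.56 ± 0.07, edgeR adjusted p = 1.31e-09). IL31RA, which pairs with OSMR to bind IL-31 and lies 12.2 kb from IL6ST, was higher too (7.97 ± 0.96 CPM in T47D-TR, 4.4 ± 0.789 CPM in T47D, log2 fold change 0.85 ± 0.15, edgeR adjusted p = 0.000383).

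LIFR, which pairs with gp130 for LIF, stood at 65.2 ± 6.25 CPM in T47D-TR and 57.3 ± 1.5 CPM in T47D, a log2 fold change of 0.19 ± 0.07 (edgeR adjusted p = 0.0275). The LIFR call ended with library size alone, with voom and without T47D-TR replicate 2 or any 1 T47D library (adjusted p = 0.0506 to 0.128). IL27RA, the receptor of interleukin-27, was lower (33.0 ± 1.51 CPM in T47D-TR, 48.4 ± 0.868 CPM in T47D, log2 fold change -0.55 ± 0.06, edgeR adjusted p = 4.72e-06). IL11RA, the binding chain for IL-11, had 27, 24 and 24 counts in T47D-TR and 17, 29 and 20 in T47D, groups that overlap (log2 fold change 0.21 ± 0.26, edgeR adjusted p = 0.501). In all, 7 of the 10 members of this family were higher, 2 lower and 1 was not called, where 32.5% of all tested genes were higher and 30.5% lower. Other gp130 ligand genes, whose symbols the rule does not reach, did not rise: CNTF had 20, 16 and 22 counts in T47D-TR and 38, 37 and 34 in T47D (log2 fold change -0.88 ± 0.25, edgeR adjusted p = 0.0075). CLCF1 was not called (0.00 ± 0.09, edgeR adjusted p = 0.982), and CTF1, with 18 counts over T47D-TR and 22 over T47D, was not tested.

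TNF family ligands divided. TNFSF14 (chromosome 19, 6661253 to 6670588), the gene of LIGHT, had 74, 77 and 54 counts in T47D-TR and 7, 6 and 3 in T47D. TNFSF15 (chromosome 9, 114784635 to 114806126), the gene of TL1A, had 34, 46 and 31 counts in T47D-TR and 5, 2 and 5 in T47D. Both were several-fold higher in every T47D-TR library (log2 fold changes 3.67 ± 0.29 and 3.19 ± 0.36, edgeR adjusted p = 2.9e-07 and 6.86e-06). TNFSF9 (chromosome 19, 6530999 to 6535928), which encodes the 4-1BB ligand of T cell costimulation and lies 125 kb from TNFSF14, was lower, with 306, 361 and 307 counts in T47D-TR and 579, 614 and 569 in T47D (log2 fold change -0.83 ± 0.08, edgeR adjusted p = 1.09e-06).

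Receptor genes of these ligands were not called. LTBR, a main signalling receptor of LIGHT whose symbol the rule does not reach, had 2508, 2489 and 1917 counts in T47D-TR and 2442, 2673 and 2546 in T47D (log2 fold change -0.13 ± 0.05, edgeR adjusted p = 0.061). The members among them had few counts, and the groups overlap for TNFRSF14 but not for TNFRSF25 and TNFRSF6B. TNFRSF14, a receptor of LIGHT, had 22, 12 and 14 counts in T47D-TR and 28, 13 and 22 in T47D (log2 fold change -0.37 ± 0.35, edgeR adjusted p = 0.384). TNFRSF25, the receptor of TL1A, had 65, 61 and 52 counts in T47D-TR and 76, 68 and 72 in T47D (log2 fold change -0.25 ± 0.16, edgeR adjusted p = 0.17), and was called lower with voom alone (-0.46, limma adjusted p = 0.021). TNFRSF6B, the decoy that binds both ligands, had 22, 25 and 20 counts in T47D-TR and 17, 14 and 15 in T47D (log2 fold change 0.56 ± 0.26, edgeR adjusted p = 0.0801), and 90.5% of its exon bases also belong to a readthrough transcript with RTEL1. TNFSF12 and TNFSF13, the genes of TWEAK and APRIL, which share exons with their own readthrough gene, were not called either (log2 fold changes 0.63 ± 0.27 and 0.19 ± 0.13, edgeR adjusted p = 0.0569 and 0.237). TNFSF12 was called higher without T47D-TR replicate 3 (0.73, edgeR adjusted p = 0.0204) or T47D replicate 2 (0.95, 0.0133).

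The other ligands included the largest fall with many counts. IL32 (chromosome 16, 3065297 to 3082192), an inflammatory cytokine gene found in primates and some other mammals but not rodents, had 34, 29 and 23 counts in T47D-TR and 705, 745 and 778 in T47D. All T47D-TR libraries lay far below the T47D ones (1.53 ± 0.206 CPM in T47D-TR, 39.2 ± 2.11 CPM in T47D, log2 fold change -4.66 ± 0.11, edgeR adjusted p = 1.13e-11), a 25.4-fold difference. CSF1 (chromosome 1, 109910242 to 109930992), the gene of the macrophage growth factor M-CSF, fell to 26.7 ± 0.186 CPM in T47D-TR, against 54.3 ± 1.84 CPM in T47D (log2 fold change -1.02 ± 0.06, edgeR adjusted p = 1.75e-08). Its receptor gene CSF1R, a marker of macrophages, had 118, 93 and 82 counts in T47D-TR and 86, 99 and 86 in T47D, groups that overlap (log2 fold change 0.14 ± 0.15, edgeR adjusted p = 0.431). IL17D was lower (29, 27 and 36 counts in T47D-TR, 56, 62 and 68 in T47D, log2 fold change -0.98 ± 0.21, edgeR adjusted p = 0.00134). IL12A, a subunit of interleukin-12, was lower at 1.11 ± 0.401 CPM in T47D-TR and 1.93 ± 0.323 CPM in T47D (log2 fold change -0.78 ± 0.28, edgeR adjusted p = 0.0276), and this call ended with DESeq2 (adjusted p = 0.0653) and without T47D-TR replicate 2 or 3 or T47D replicate 2 or 3 (edgeR adjusted p = 0.0649 to 0.0914).

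IL15 and its receptor moved in opposite directions. IL15, a growth factor gene for natural killer and memory T cells, had 61, 68 and 51 counts in T47D-TR and 29, 36 and 34 in T47D (log2 fold change 0.88 ± 0.18, edgeR adjusted p = 0.00108). IL15RA, which presents IL-15 on the cell surface, was lower, at 17.8 ± 0.445 CPM in T47D-TR and 26.7 ± 0.719 CPM in T47D (log2 fold change -0.59 ± 0.07, edgeR adjusted p = 1.07e-05).

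**Figure D4:**
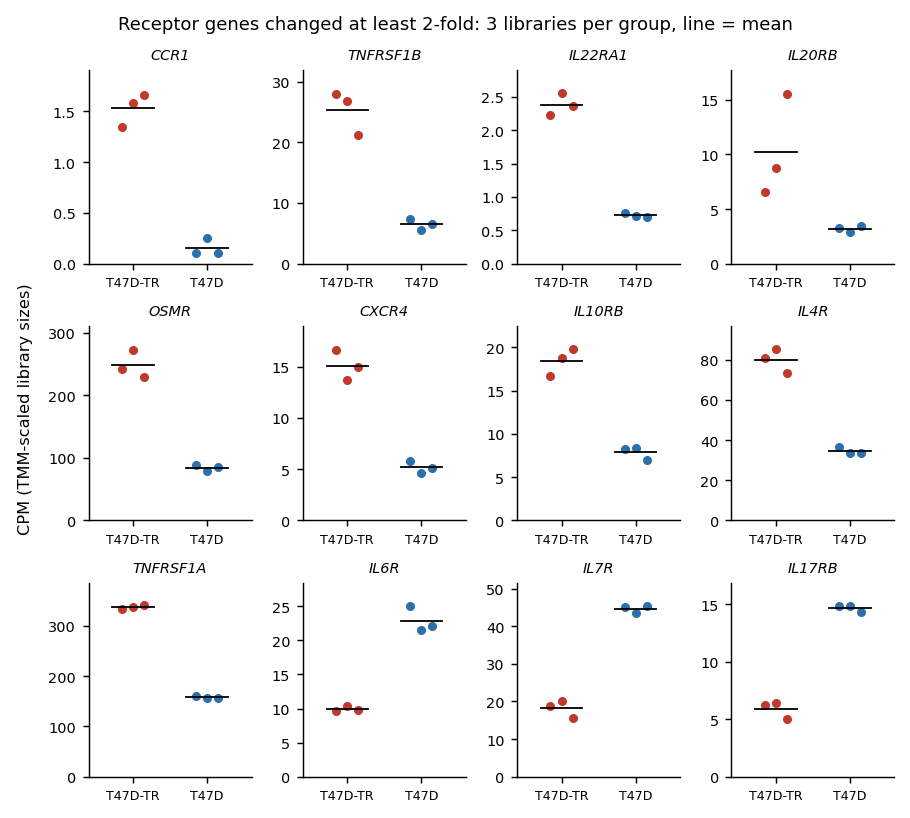
CPM (y axis, linear from 0) of the 12 receptor genes called and changed at least 2-fold, in each of the 3 T47D-TR libraries (red, left) and the 3 T47D libraries (blue, right); lines are means. In 9 genes every T47D-TR library lies above every T47D library, and in IL6R, IL7R and IL17RB every one lies below.

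Both receptors of TNF were higher in T47D-TR. TNFRSF1A (chromosome 12, 6328757 to 6342114), the widely expressed death-domain receptor, had 6430, 6594 and 5762 counts in T47D-TR and 2963, 3060 and 2922 in T47D. TNFRSF1B (chromosome 1, 12167003 to 12209228), the receptor without a death domain, had 539, 525 and 357 counts in T47D-TR and 137, 109 and 123 in T47D. The groups were well apart for both genes (2.14-fold for TNFRSF1A and 3.89-fold for TNFRSF1B, edgeR adjusted p = 2.96e-10 and 6.44e-08). Per kilobase of exon TNFRSF1A remained the higher of them, at 113 CPM per kb in T47D-TR and 52.9 in T47D, against 6.84 and 1.76 for TNFRSF1B. TNF itself was not among the 86 genes that the rule found in the deposited table.

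TNFRSF21, the gene of death receptor 6, was higher (182 ± 12.1 CPM in T47D-TR and 100.1 ± 2.48 CPM in T47D, log2 fold change 0.86 ± 0.05, edgeR adjusted p = 4.18e-08). TNFRSF12A, which encodes the TWEAK receptor Fn14, was lower (50.9 ± 4.1 CPM in T47D-TR, 67.8 ± 0.77 CPM in T47D, log2 fold change -0.41 ± 0.06, edgeR adjusted p = 8.01e-05). The receptors of the death ligand TRAIL, neighbours on chromosome 8, went both ways by small steps. The decoy TNFRSF10D was lower (13.9 ± 3.43 CPM in T47D-TR, 22.5 ± 1.81 CPM in T47D, log2 fold change -0.70 ± 0.14, edgeR adjusted p = 0.000882), as was the death receptor TNFRSF10A (-0.25 ± 0.09, edgeR adjusted p = 0.0244), while the other death receptor, TNFRSF10B, was higher (109 ± 7.15 CPM in T47D-TR, 96.0 ± 2.62 CPM in T47D, 0.18 ± 0.06, edgeR adjusted p = 0.011). The TNFRSF10A call ended with DESeq2 and without T47D-TR replicate 1 or 3 or T47D replicate 1 or 2 (adjusted p = 0.0504 to 0.0817), and that of TNFRSF10B without T47D replicate 3 (0.0577). TNFSF10, the gene of TRAIL, had 2 to 6 counts in the T47D-TR libraries and 2 to 5 in the T47D libraries.

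TNFRSF11A, which encodes RANK, the receptor of an osteoclast-activating ligand, had 28, 51 and 29 counts in T47D-TR and 21, 17 and 23 in T47D (log2 fold change 0.84 ± 0.28, edgeR adjusted p = 0.0202). That call rested on T47D-TR replicate 2, without which it was 0.55 (edgeR adjusted p = 0.126), and it also ended without T47D replicate 2 (0.0832), with DESeq2 (0.0521) and with voom (0.0675). TNFRSF11B, the gene of osteoprotegerin, the soluble decoy for the same ligand, had 0 counts in all T47D-TR libraries and 6, 5 and 2 in T47D. Against a floor of 3 counts over the T47D-TR group it was at least 4.26-fold lower in T47D-TR if the T47D counts are taken as exact, and the 95% interval of the ratio (exact binomial, counting error only) reaches down to 2.99-fold.

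Chemokine receptor genes that passed the filter, CXCR4, CCR1 and CXCR6, were all called higher, where 32.5% of all tested genes were higher. CCR1 passed the filter through its T47D-TR counts alone and so had to differ. The CXCR6 call, given above, ended under some alternatives. CXCR4 (chromosome 2, 136114349 to 136118165), the receptor of CXCL12 and known for its part in metastasis, had 321, 269 and 253 counts in T47D-TR and 107, 90 and 96 in T47D, with a clear gap between the groups (log2 fold change 1.55 ± 0.12, edgeR adjusted p = 2.69e-07). CCR1 (chromosome 3, 46201709 to 46208396), a receptor of several CC chemokines on myeloid cells, had 26, 31 and 28 counts in T47D-TR and 2, 5 and 2 in T47D (log2 fold change 3.21 ± 0.38, edgeR adjusted p = 1.22e-05). CXCL12 was not among the 86 genes that the rule found in the deposited table.

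Of the receptor chains of the IL-10 and IL-20 family on epithelial cells, the 3 that were tested were each called higher. Among all tested genes 32.5% were higher. IL22RA1 (chromosome 1, 24119771 to 24143121), the binding chain for IL-22 and a partner for IL-20 and IL-24, had 43, 50 and 40 counts in T47D-TR and 14, 14 and 13 in T47D. IL20RB (chromosome 3, 136946230 to 137011085) had 126, 171 and 262 counts in T47D-TR and 60, 57 and 64 in T47D, with T47D-TR replicate 3 at 2.03 times the mean of the other T47D-TR libraries. IL10RB (chromosome 21, 33266358 to 33310187), the shared chain, had 322, 368 and 334 counts in T47D-TR and 153, 164 and 130 in T47D. No groups overlapped, and the log2 fold changes were 1.71 ± 0.23, 1.67 ± 0.27 and 1.22 ± 0.11 (edgeR adjusted p = 3.51e-05, 0.000175 and 7.03e-07). Of the exon bases of IL10RB 88.2% also lie in a readthrough gene of the same strand. IL20RA, the partner of IL20RB, had 10, 16 and 10 counts in T47D-TR and 4, 6 and 4 in T47D and did not pass the filter, and IL24, the measured ligand of these chains, had 2, 10 and 0 counts in T47D-TR and 3, 3 and 6 in T47D.

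Type 2 cytokine receptor genes were higher and the IL-7 receptor gene lower. IL4R (chromosome 16, 27313668 to 27364778), which binds IL-4 and pairs with IL13RA1, had 1560, 1675 and 1243 counts in T47D-TR and 678, 653 and 622 in T47D (log2 fold change 1.22 ± 0.07, edgeR adjusted p = 1.34e-08). IL13RA1, its partner chain, was higher by less, at 85.5 ± 3.91 CPM in T47D-TR and 63.1 ± 2.61 CPM in T47D (0.44 ± 0.05, edgeR adjusted p = 1.74e-05). IL7R (chromosome 5, 35852695 to 35879603), a chain best known from lymphocytes, had 365, 393 and 265 counts in T47D-TR and 836, 849 and 847 in T47D (-1.29 ± 0.08, edgeR adjusted p = 5.34e-08). Its ligand gene IL7 had 1 to 3 counts in the T47D-TR libraries and 1 to 6 in the T47D libraries.

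IL-17 receptor chains split by chain. IL17RB (chromosome 3, 53846580 to 53865800), the receptor of IL-25, had 121, 126 and 85 counts in T47D-TR and 276, 290 and 268 in T47D (log2 fold change -1.31 ± 0.11, edgeR adjusted p = 5.62e-07). IL17RC, which joins IL17RA to bind IL-17A, was higher, at 28.8 ± 3.82 CPM in T47D-TR and 16.6 ± 1.14 CPM in T47D (0.79 ± 0.10, edgeR adjusted p = 1.65e-05), and its neighbour IL17RE, 0.672 kb away, was called higher as well (0.67 ± 0.23, edgeR adjusted p = 0.023). The shared chain IL17RA had 533, 523 and 550 counts in T47D-TR and 593, 595 and 546 in T47D, with groups that overlap in CPM (-0.08 ± 0.08, edgeR adjusted p = 0.411). It was called lower without T47D-TR replicate 3 (-0.17, edgeR adjusted p = 0.0351). IL17RD, an orphan member that restrains FGF signalling, was higher by 0.39 ± 0.14 (edgeR adjusted p = 0.0257). The IL17RE call ended with voom and without T47D-TR replicate 3 or T47D replicate 1 or 2 (adjusted p = 0.0604 to 0.127), and that of IL17RD with DESeq2, with voom and without T47D-TR replicate 1 or T47D replicate 1 or 2 (0.0518 to 0.321).

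The 26 members under the filter had at most 16 counts in any library. With no filter 6 of them were called: CXCL1, CSF2, IL13RA2 and IL20RA higher and TNFSF13B and TNFRSF11B lower. IL13RA2, a decoy for IL-13, had 6, 8 and 16 counts in T47D-TR and 5, 1 and 3 in T47D. CSF2, the gene of GM-CSF, had 9, 4 and 7 counts in T47D-TR and 2, 3 and 0 in T47D, and TNFSF13B, the gene of the B cell factor BAFF, had 2, 1 and 0 in T47D-TR and 6, 4 and 8 in T47D. Of the 3 members that are neither ligand nor receptor, IL4I1, an amino acid oxidase gene, was tested and was lower (34, 40 and 41 counts in T47D-TR, 92, 80 and 88 in T47D; log2 fold change -1.15 ± 0.18, edgeR adjusted p = 0.000113). It shares 13.1% of its exon bases with NUP62. The others, IL1RAPL2 and the pseudogene IL9RP3, had at most 6 counts in any library.

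TNFRSF18, the gene of the costimulatory receptor GITR, had 21, 21 and 13 counts in T47D-TR and 18, 11 and 7 in T47D, groups that overlap (log2 fold change 0.63 ± 0.36, edgeR adjusted p = 0.147), and was called higher without T47D replicate 1 (1.05, edgeR adjusted p = 0.0408).

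Genes downstream of these receptors went both ways. Of 25 genes of JAK kinases, STAT factors and their regulators (SOCS and PIAS genes, CISH, PTPN6 and PTPN11) 24 were tested. Of these 12 were higher and 5 lower, where 32.5% of all tested genes were higher and 30.5% lower. Their median log2 fold change was 0.14. The 5 lower genes were STAT5A (-0.61), SOCS2 (-0.72), CISH (-0.77), PIAS4 (-0.35) and PTPN11 (-0.44, log2 fold changes). At least 2-fold higher were SOCS6, a member of the SOCS feedback family (86.8 ± 12.7 CPM in T47D-TR and 24.3 ± 2.53 CPM in T47D), JAK3, the kinase of common gamma chain receptors (6.89 ± 0.581 CPM in T47D-TR, 1.93 ± 0.426 CPM in T47D), and STAT4 (2.23 ± 0.269 CPM in T47D-TR, 0.986 ± 0.186 CPM in T47D). SOCS3, the feedback inhibitor induced through gp130, was higher by 0.53 ± 0.18 on the log2 scale (edgeR adjusted p = 0.0203), although T47D-TR replicate 3 (11.9 CPM) lay below every T47D library, and STAT3 by 0.19 ± 0.05 (edgeR adjusted p = 0.00349). Of 23 TNF receptor adaptor and death effector genes 22 were tested, 6 were higher and 5 lower, with a median of 0.07, so that fewer were called than the 63% of all tested genes. The 5 lower genes were FADD (-0.23), TRAF3 (-0.18), TRAF5 (-0.49), MLKL (-0.31) and MAP3K14 (-0.45, log2 fold changes). TNFAIP3, which encodes the NF-kB feedback inhibitor A20, was at 19.3 ± 5.25 CPM in T47D-TR and 4.03 ± 0.294 CPM in T47D, and BIRC3, the gene of the inhibitor of apoptosis cIAP2, at 14.9 ± 4.24 CPM in T47D-TR and 7.27 ± 0.711 CPM in T47D, with T47D-TR replicate 3 lowest for both. CFLAR, an inhibitor of caspase-8 activation, was higher by 0.77 ± 0.07 on the log2 scale (edgeR adjusted p = 1.68e-06).

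Of 47 cytokine and TNF family genes whose symbols the rule does not reach, 32 were in the table and 22 were tested, 9 higher and 5 lower, a share called close to the 63% of all tested genes, with a median log2 fold change of 0.12. Among the lower ones were CNTF (-0.88), RELT (-0.39), MIF (-0.16) and IFNAR1 (-0.12). FAS, the death receptor gene, was higher by 0.79 ± 0.09 on the log2 scale (edgeR adjusted p = 1.15e-05). TSLP, an epithelial cytokine gene, had 6, 11 and 3 counts in T47D-TR and 0 in every T47D library, and was not tested. Of 5 atypical chemokine receptor genes ACKR4 alone was tested and was not called (0.28 ± 0.43, edgeR adjusted p = 0.585).

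Over the 32 ligand and receptor pairs with both genes measured, in which a gene can stand several times, the calls of a pair often differed. In 7 pairs ligand and receptor were both higher (including IL18BP with IL18, an antagonist and its target). The share of single tested genes that were higher, 32.5%, is no background for a count of pairs. IL6ST (with IL6, IL11 and LIF) and IL1RAP (with IL1A and IL1B) each stand in several of the 7. The calls of LIFR and IL18BP in these pairs ended under alternatives, and IL1A and IL1B passed the filter through T47D-TR alone. In 2 the ligand was higher and the receptor lower (IL6 with IL6R, IL15 with IL15RA), and in 1 the reverse (CXCL16 with CXCR6). In another 7 the ligand was higher and the receptor not called. No pair had both genes called lower, but many pairs hold a gene that was not tested and so could not be called. In 2 pairs the ligand was lower and the receptor not tested (IL12A with IL12RB2, TNFSF9 with TNFRSF9). In 3 the receptor was lower and the ligand not tested.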

How the data were processed

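Poly(A) RNA of 3 T47D-TR and 3 T47D libraries was sequenced with a directional kit, per the labels' protocols. The submitters' processing notes name HISAT2 2.1.0, GRCh38 and DESeq (no version); the sources used here do not give how, on which strand and with which annotation reads were counted. The deposited columns per library hold whole-number counts, although the table's name says FPKM. The authors' group means on a normalized signal scale, their fold (linear ratio), their log2 fold change and their p-value and FDR were deposited beside the counts and support no value given here.

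Counts were fitted over the whole table with edgeR 4.0.16 (R 4.3.3): TMM scaling, filterByExpr (minimum count 10, minimum total 15), glmQLFit and glmQLFTest, T47D-TR over T47D, with Benjamini-Hochberg adjustment over all tested genes. CPM are given as mean ± SD over 3 libraries. The SE of a log2 fold change is its size divided by the square root of the quasi-likelihood F. Genes with 1 to 3 counts in a group are given as a ratio of summed counts. Positions, exon lengths and overlaps come from GENCODE v29 (GRCh38), promoters from RefSeq (GRCh38.p14). DESeq2 1.42.0, limma 3.58.1 (voom), other scalings and filters, a replicate block and leaving out each library were alternatives. The fit was tested on simulated data. The members, gene lists, ligand and receptor pairs and the promoters shown were chosen with earlier results of these data known. Genes named were up to 14 ligands and 14 receptors with the largest change among called members changed at least 2-fold, the 4 ligands and 4 receptors with the most counts, members at 0 in 1 group, and their paired partners; other members were named after their values were seen. Same-numbered libraries were not paired by the labels.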

Additional observations from a re-analysis of the deposited data

How the results depend on the processing

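Of the 60 tested members 47 kept their side of the threshold under every alternative run. No member changed direction while called. The call of 9 ended in at least 1 alternative (LIFR, IL18BP, IL12A, IL17RD, IL17RE, CXCR6, TNFRSF10A, TNFRSF10B and TNFRSF11A), and 4 were called only in an alternative (TNFRSF25, TNFSF12, TNFRSF18 and IL17RA); the cause was not tested. Leaving out each library in turn gave 12 to 13 ligands higher, 6 to 7 lower, 17 to 21 receptors higher, 7 to 8 lower and 9047 to 10665 genes called in all. DESeq2 called 19 receptors higher and voom with quantile normalization 16; voom moved the log2 fold change of all genes by a median of -0.11. With no filter 14 ligands and 23 receptors were higher, and with a minimum mean CPM of 1 these were 10 and 20. With the title number as a replicate block 12 ligands and 21 receptors were higher and 7 and 8 lower, as without it, and 9954 genes were called in all. Deviations of same-numbered libraries from their group means correlated at -0.01, -0.02 and -0.01, so no strong shared pattern was seen. With 3 libraries per group this cannot show that they share only a number. Fitted values that moved over 1.5-fold were those of IL1B (7.91 without T47D replicate 1, 5.24 with voom), IL1A (5.85 without T47D replicate 2), CCL2 (-8.02 without T47D-TR replicate 3) and CXCL8 (4.68 without T47D replicate 2). Depth limits the 26 members under the filter and the T47D levels of IL1A and IL1B.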
